A study of Mus musculus with 13 samples.

Results

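The genes of the MYC and MAX network taken here are Myc, Mycn, Max, Mxd1, Mxd4, Mxi1, Mnt and Mlx, 8 of 21887 protein-coding mouse genes. They were followed through every called region that lay within 100 kb of a gene's mm10 bounds. Regions came from chromatin immunoprecipitation with sequencing (ChIP-seq) of STAT5A, LSD1 and HDAC3 in Ba/F3, a mouse pro-B cell line that needs interleukin 3 (IL3) to grow and survive. The line was grown in medium with 1 ng/mL IL3 and starved of the cytokine for 6 h. Starved cells form the group called without IL3 here, and the group called with IL3 received 10 ng/mL after starvation, for 30 min. There were 2 biological replicates of each protein in each group. The 18 lists are 12 of single libraries and 6 called on the pooled libraries of a group. All groups are the same unmodified line, and the lists hold no RNA levels, so the pro-B identity was not checked and expression of the 8 genes was not measured.

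MYC and MYCN are transcription factors that bind DNA as a pair with MAX and drive growth genes. MXD1, MXD4, MXI1 and MNT also pair with MAX, compete for the same E-box sites and recruit SIN3 co-repressors with histone deacetylases, so the balance of the 2 kinds of pair sets the output of shared targets. MLX is a MAX-like partner of MXD1, MXD4, MNT and the glucose-sensing factors MLXIP and MLXIPL. STAT5A is the factor that JAK kinases activate below the IL3 receptor, and Myc is a known cytokine-responsive gene in blood cells. LSD1 removes methyl groups from histone H3 in CoREST complexes, and HDAC3 is the deacetylase of NCoR complexes.

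The lists differed widely in length, from 265 to 15786 regions among the 12 libraries. Every region carries a score from the authors, whose definition was not at hand. In each list the low scores go up in equal steps. If that step is 1 read, the relative depth of the libraries ran from 1.00 to 8.84 and their weakest regions rest on 4 to 6 reads. Scores are therefore used only to rank regions within 1 list. The second HDAC3 library with IL3 stands apart, with 31 of its 265 regions off the assembled chromosomes.

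The sequences at the start sites are shown first, because STAT5A regions without IL3 lay there at 5 of these genes. RefSeq gives 9 promoter windows for 7 of the 8 genes (GRCm38.p6, the mm10 assembly), each running from 250 bases before to 50 bases after a start site. The 5 printed here run from 250 bases before the start site to the first 30 bases transcribed, 5′ to 3′ on the gene's strand. They are the 4 windows that hold an E-box (CACGTG, the site that MYC and MAX pairs bind, in capitals) and the first Mxi1 start, the only start in these windows with regions of all 3 proteins with IL3.
Mxd4, chr5:34187681-34187960, minus strand: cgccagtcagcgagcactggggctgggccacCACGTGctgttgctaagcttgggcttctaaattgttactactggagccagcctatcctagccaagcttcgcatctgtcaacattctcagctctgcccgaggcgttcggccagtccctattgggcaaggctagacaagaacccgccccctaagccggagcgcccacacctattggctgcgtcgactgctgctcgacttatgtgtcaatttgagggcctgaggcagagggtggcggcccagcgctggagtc
Mnt, chr11:74830674-74830953, plus strand: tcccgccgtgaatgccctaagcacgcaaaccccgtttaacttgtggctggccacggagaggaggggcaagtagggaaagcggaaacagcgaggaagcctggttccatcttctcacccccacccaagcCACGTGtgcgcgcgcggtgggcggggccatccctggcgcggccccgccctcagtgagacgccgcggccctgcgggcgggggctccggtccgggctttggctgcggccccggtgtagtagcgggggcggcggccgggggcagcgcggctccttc
Max, chr12:76962219-76962498, minus strand: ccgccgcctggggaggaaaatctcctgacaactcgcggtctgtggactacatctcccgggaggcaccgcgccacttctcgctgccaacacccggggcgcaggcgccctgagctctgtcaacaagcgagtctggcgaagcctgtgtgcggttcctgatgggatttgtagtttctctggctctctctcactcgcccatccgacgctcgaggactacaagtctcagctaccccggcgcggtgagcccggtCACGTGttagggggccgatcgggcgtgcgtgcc
Mlx, chr11:101087040-101087319, plus strand: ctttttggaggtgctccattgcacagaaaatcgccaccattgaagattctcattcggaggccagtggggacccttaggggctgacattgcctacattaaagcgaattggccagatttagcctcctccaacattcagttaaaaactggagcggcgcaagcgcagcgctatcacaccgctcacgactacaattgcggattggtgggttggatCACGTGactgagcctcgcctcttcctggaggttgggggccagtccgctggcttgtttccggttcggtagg
Mxi1, chr19:53310256-53310535, plus strand: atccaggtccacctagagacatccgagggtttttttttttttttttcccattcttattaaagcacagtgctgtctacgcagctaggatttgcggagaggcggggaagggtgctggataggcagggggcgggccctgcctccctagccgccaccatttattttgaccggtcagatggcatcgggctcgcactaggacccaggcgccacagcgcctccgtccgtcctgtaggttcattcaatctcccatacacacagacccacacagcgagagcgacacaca

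The E-box begins 219 bases before the start site in Mxd4, 123 in Mnt, 40 in Mlx and 3 in Max. Among 32851 mouse promoter windows of 300 bases, 7.15% hold a CACGTG, which reads the same on both strands. Regions of the lists covered these E-boxes in part. The Mxd4 E-box lay inside the STAT5A region of replicate 2 in both conditions, and the Mnt E-box inside the STAT5A region of replicate 2 without IL3 and the LSD1 region of replicate 2 with IL3. The Max E-box was covered by LSD1 regions of replicate 2 in both conditions, and the Mlx E-box by the LSD1 region of replicate 2 with IL3. The STAT motif TTCNNNGAA, also its own reverse complement, is in 8.30% of all windows and in 0 of the 9 windows here.

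STAT5A regions overlapped 6 of the 9 promoter windows, of 5 genes, in replicate 2 without IL3, against 6.51% of all 32851 windows in that list. In the other replicate without IL3 they overlapped 0 of 9 windows, against 0.222% of all. With IL3 they overlapped 1 of 9 in replicate 1 (3.94% of all) and 2 of 9 in replicate 2 (5.99% of all). In the pooled lists the numbers were 7 of 9 without IL3 and 3 of 9 with IL3, against 6.96% and 7.96% of all. The start-site regions without IL3 thus rest on 1 library, and no test was made of them.

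Mxd4, a MAX partner expressed in differentiating cells, had the highest of these start-site regions. Its STAT5A score was 88.3 in replicate 2 without IL3, rank 20 of 4513, and 40.0 in replicate 2 with IL3, while neither replicate 1 list held the region. In the pooled lists it ranked 40 of 5051 without IL3 (score 56.6) and 8273 of 15546 with IL3 (21.4). It was the only STAT5A region of the pooled lists within 100 kb of Mxd4, and no list had an HDAC3 region in that window. The remaining start-site scores in replicate 2 without IL3 were 37.3 at Mnt, 33.9 and 23.8 at Mxi1, 30.6 at Mxd1 and 23.8 at Max. The lowest score in that list was 17.0 and the median 23.8, so these regions sat at or above the middle of the list.

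Pooled LSD1 regions overlapped 7 of the 9 promoter windows without IL3, of 6 genes, and 5 of 9 with IL3, of 4 genes, against 14.2% and 15.2% of all windows. By library the numbers were 0 and 5 without IL3 and 3 and 6 with IL3. At the Mycn start the LSD1 scores were 39.6 in replicate 2 without IL3 and 22.3 and 32.0 in the replicates with IL3. At the first Mxi1 start, LSD1 scored 45.7 in replicate 2 without IL3 and 27.2 and 45.3 with IL3, and STAT5A scored 23.8 in replicate 2 without IL3 and 29.8 and 40.0 with IL3. HDAC3 was called at that start only in replicate 1 with IL3, with a score of 21.9, and at no other start of the 7 genes. In the pooled HDAC3 lists that is 0 of 9 windows without IL3 and 1 of 9 with IL3, against 2.03% and 0.511% of all.

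**Figure D1:**
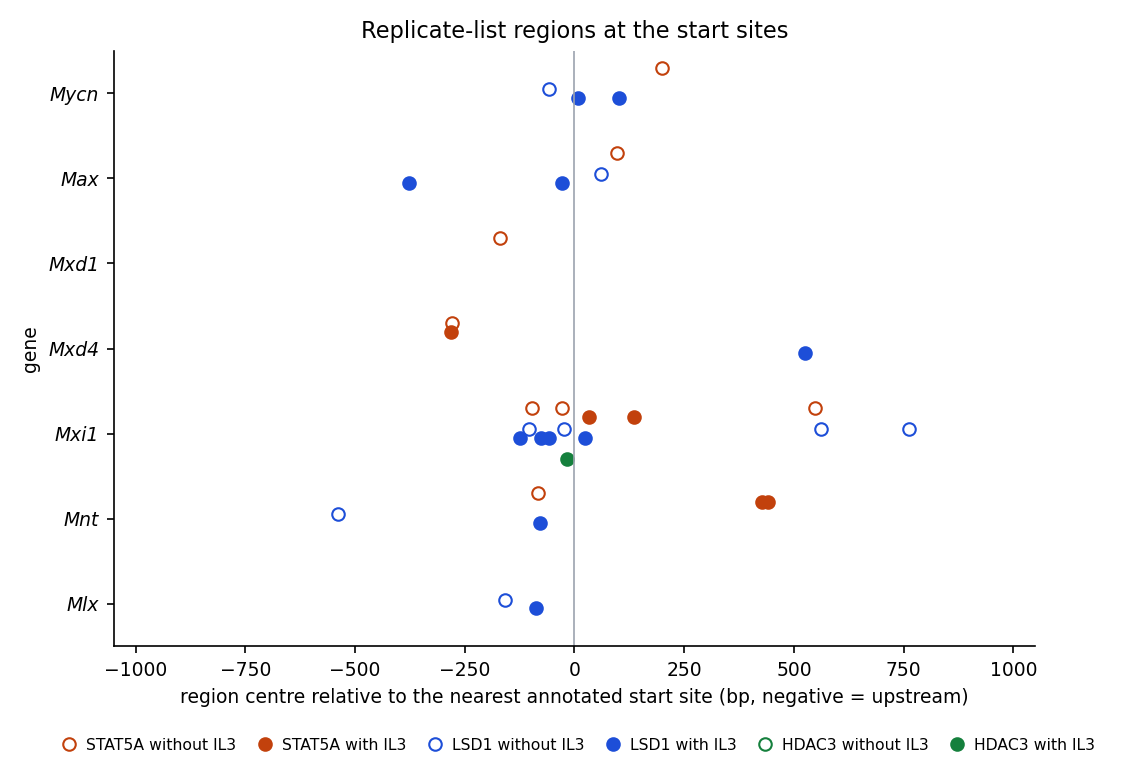
Centres of regions of the 12 replicate lists within 1000 bp of the nearest annotated start site (x axis, bp, negative upstream) for the 7 genes with a start site in the reference; colours mark the protein, open points the lists without IL3 and filled points those with IL3. Every gene but Mlx has an open STAT5A point, and the only HDAC3 point is at Mxi1.

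Around the 8 genes as a whole, more STAT5A regions were called with IL3 than without. Without IL3 the STAT5A libraries gave 1 and 18 regions in these windows, and with IL3 they gave 44 and 25. That is 9.50 ± 12 against 34.5 ± 13.4 regions (SD, n = 2 each), a mean log2 ratio of 2.47 on counts plus 1 (exact permutation p = 0.333, two-sided, the smallest that 2 against 2 can give). The groups do not overlap, but the ratio was 0.85 without replicate 1 without IL3 and 4.10 without replicate 2 without IL3. As a share of each list, the windows held 0.282% and 0.399% without IL3 and 0.324% and 0.398% with IL3 (exact permutation p = 1.00). The 0.282% is 1 region of 354, and the part of list length in the counts was not tested. Relative depth, if 1 step is 1 read, was 2.76 and 4.45 without IL3 and 4.05 and 3.02 with IL3, and its part in the counts was not tested.

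LSD1 had 5 and 55 such regions in starved cells and 18 and 45 after IL3, or 30.0 ± 35.4 against 31.5 ± 19.1 (SD, n = 2 each; exact permutation p = 1.00, two-sided). The range within a condition was wider than the difference, and the log2 ratio of 0.69 turned to -0.92 without replicate 1 without IL3. HDAC3 had 6 and 2 in starved cells and 6 and 0 after IL3 (4.0 ± 2.83 against 3.00 ± 4.24, SD, n = 2 each; exact permutation p = 1.00, two-sided). Its log2 ratio of -0.79 became 0.61 without the second library with IL3. That library has no region in the windows, and 0 of its 265 regions allows a share of up to 1.13%.

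In the pooled lists, 7 of the 8 genes had a STAT5A region within 100 kb without IL3 and 8 of 8 with IL3, against 52.1% and 71.1% of all genes. LSD1 regions lay near 8 of 8 in both conditions (71.0% and 72.3% of all genes), and HDAC3 regions near 4 and 5 (34.9% and 16.6%). The 8 genes had a median of 5.00 STAT5A regions with IL3, where all genes had 2.00, and 7.5 LSD1 regions, where all genes had 3.00. A region within 100 kb need not have the member as its nearest gene. At Mlx 0 of 3 pooled STAT5A regions without IL3 and 0 of 6 with IL3 did, while at Myc and Mycn all did. Regions cluster on the genome and windows of long genes are longer, so these counts are a description and were not tested.

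Mxi1, the MAX partner formerly called MXD2, held the most regions of each protein with IL3: 12 of STAT5A, 16 of LSD1 and 4 of HDAC3 in the pooled lists. As many were near 1.9%, 0.886% and 0.498% of all genes. This order holds for the 100 kb window: within 10 kb Mxi1 had 3 STAT5A, 5 LSD1 and 1 HDAC3 region, with 6 LSD1 regions at Mnt and 1 HDAC3 region each at Myc and Mxd1. Counting only regions whose nearest gene is the member, Mxi1 and Mnt had 6 LSD1 regions each. Mxi1 is also the longest of the 8 genes, at 63166 bp, and its window of 263166 bp holds Add3 and Smndc1 as well. Mxd4 had the fewest STAT5A and LSD1 regions with IL3, 1 and 2. In the replicates, Mxi1 had 0 and 4 STAT5A regions in starved cells and 9 and 8 after IL3, the closest match between replicates with IL3 among the genes with more than 2 regions in each. Max had 0 and 1 without and 10 and 2 with IL3, a wide gap between the replicates with IL3.

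**Figure D2:**
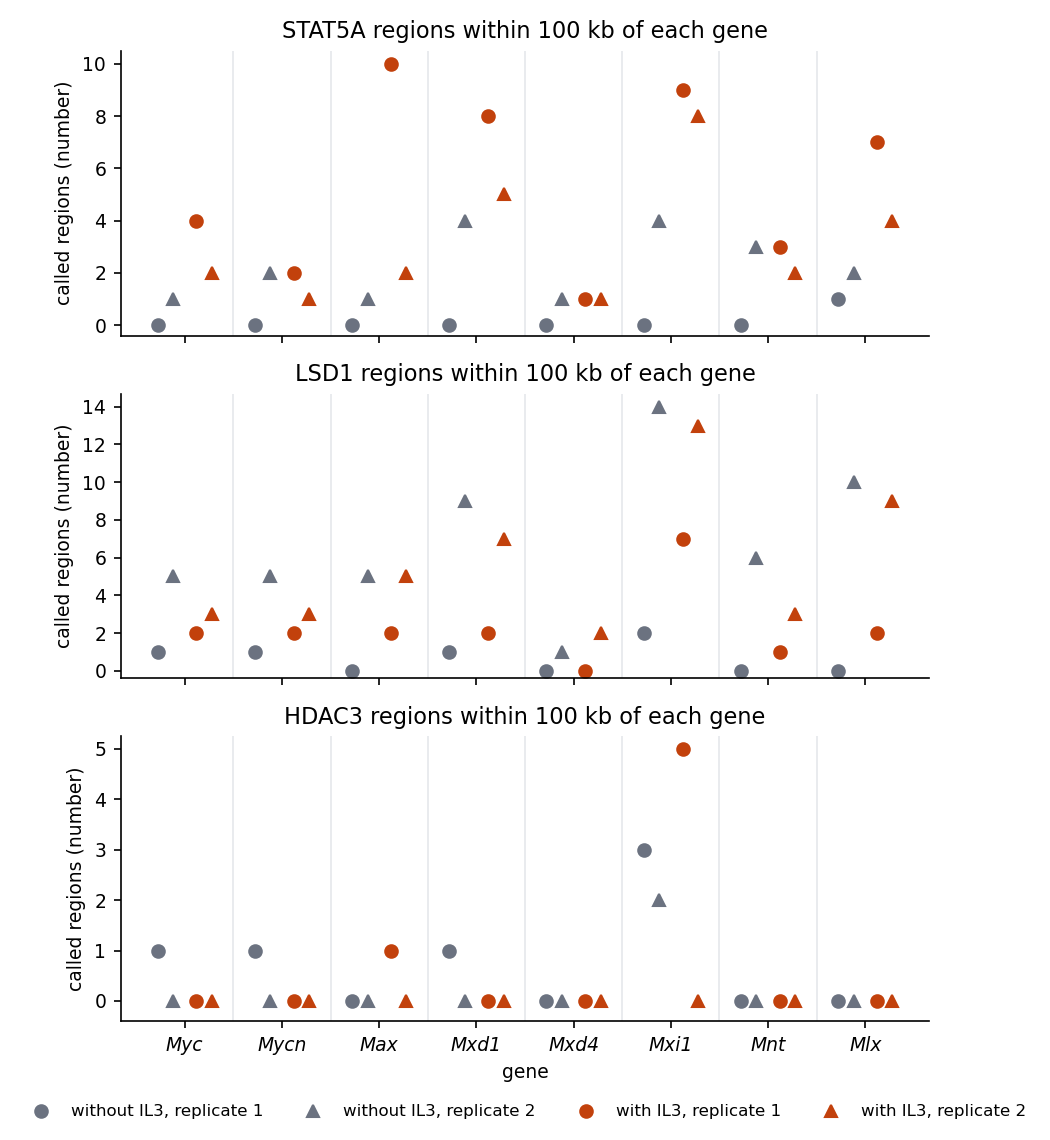
Number of called regions (y axis) within 100 kb of each gene (x axis) in the 12 replicate lists, one panel per protein; circles are replicate 1, triangles replicate 2, grey without IL3 and orange with IL3. STAT5A points with IL3 lie above both points without IL3 at Myc, Max, Mxd1, Mxi1 and Mlx, and LSD1 circles lie below LSD1 triangles of the same condition at each gene.

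A region was called gained where both replicates with IL3 and neither without had it, and lost where the reverse held. Of 67 merged STAT5A regions in the windows, 10 were gained (14.9%, exact binomial 95% interval 7.40 to 25.7) and 0 lost (upper bound 5.36%). Over the whole lists 8.72% were gained and 0.0482% lost, so the share near these genes was not separable from that of the lists. The gained regions lay at Mxd1 (3), Mxi1 (3), Max (2), Mlx (1) and Mnt (1), and none at Myc, Mycn or Mxd4. With replicate 1 with IL3 left out the count was 19, and with replicate 2 with IL3 left out it was 41, because a call then needs 1 list instead of 2. None of the 77 merged LSD1 regions was lost (0.319% over the lists), and of 11 merged HDAC3 regions 0 were gained and 0 lost (0.0389% and 3.58% over the lists). A loss needs a region in both lists without IL3, and replicate 1 had 1 in the windows for STAT5A and 5 for LSD1. For HDAC3, replicate 2 had 2 regions without IL3 and 0 with IL3, so no gain could be called. The counts of 0 and the 5.36% bound therefore do not show that such changes were rare here. Intervals here cover counting error only.

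Max, the common partner of the network, has the highest-ranked of these regions. A region 94.7 kb upstream of Max (chr12:77056962-77057142, intergenic, nearest gene Max) had a STAT5A score of 839.1 in replicate 1 with IL3, rank 4 of 13574, and 335.1 in replicate 2, rank 6 of 6288. Neither list without IL3 held it. In the pooled list with IL3 it scored 621.7 and ranked 2 of 15546. LSD1 was called there in replicate 2 without IL3 (33.5) and in both replicates with IL3 (37.1 and 66.6). HDAC3 was called there in replicate 1 with IL3, rank 21 of 683 with a score of 43.8, but not in replicate 2 with IL3 and in neither list without. The other gained region at Max, 58.0 kb upstream, was weak, with scores of 29.8 and 30.0.

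Mxi1 had a pair of strong gained STAT5A regions upstream, both intergenic with Mxi1 as the nearest gene. The region 28.1 kb upstream (chr19:53281915-53282095) scored 510.9 and 120.0 with IL3 and ranked 70 of 15546 in the pooled list. The region 30.4 kb upstream (chr19:53279684-53279871) scored 477.3 and 50 and ranked 150. The latter was also the single gained LSD1 region of the 77 merged LSD1 regions in the windows (1.30%, against 3.36% over the lists), with scores of 29.7 and 32.0. HDAC3 was called at both in replicate 1 with IL3 (30.1 and 24.7) and in neither list without, and replicate 2 with IL3 had no HDAC3 region there. Another gained region, 36.6 kb upstream and nearest to Add3, scored 85.8 and 45.0, and LSD1 was called there in replicate 2 of both conditions.

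At Mxd1, another MAX partner that takes the place of MYC in differentiating cells, the strongest gained STAT5A region lay 76.1 kb downstream, nearest to the predicted gene Gm46963, and scored 212.6 and 85.0. The other gained regions there scored 26.1 and 30.0, and 18.6 and 35.0. A region 6.97 kb downstream of Mxd1 (chr6:86639894-86640252) was held by more lists. STAT5A scored 67.1 and 70.0 there with IL3 and 20.4 in replicate 2 without IL3, so it was not gained. LSD1 was called there in all 4 libraries, at 60.5 and 79.2 without IL3 and 42.1 and 101.3 with IL3. The ranks were 837 of 1007 and 723 of 15786 without IL3, and 409 of 6479 and 136 of 11570 with IL3. The 60.5 is the lowest score of its list.

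Mnt and Mlx had 1 gained STAT5A region each. The Mnt region lies within the gene (chr11:74831261-74831452), with scores of 26.1 and 40.0. Close to it, without overlap, replicate 2 without IL3 had the STAT5A region of the Mnt start (chr11:74830771-74830911, score 37.3, rank 284 of 4513). The gained region of Mlx was 91.9 kb upstream, nearest to Atp6v0a1, with scores of 141.7 and 30.0. Mlx also had the only region of the first STAT5A library without IL3 in any of the windows, 79.9 kb downstream near Plekhh3. It scored 76.6 there, rank 10 of 354, 44.1 in the second library without IL3 and 50 in replicate 2 with IL3, while replicate 1 with IL3 had its nearest call (chr11:101171634-101171806, score 111.9) just beside it, without overlap.

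**Figure D3:**
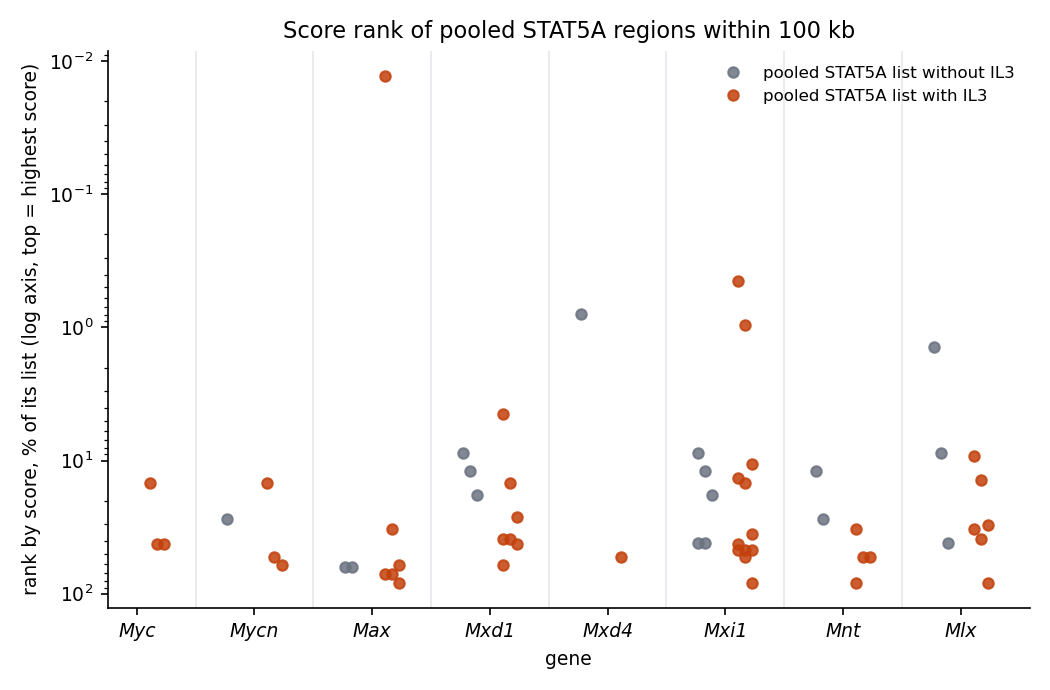
Rank by score of each pooled STAT5A region within 100 kb, as a percentage of its own list (y axis, log scale, highest scores at the top), for each gene (x axis), grey without IL3 and orange with IL3. The Max region at rank 2 of 15546 and the Mxi1 regions at ranks 70 and 150 stand above the rest with IL3, and the Mxd4 start-site region at rank 40 of 5051 stands highest without IL3.

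At Myc itself, no STAT5A region within 100 kb was shared by the replicates with IL3. STAT5A was called 1.09 kb outside the lower-coordinate bound (chr15:61984167-61984343) with a score of 104.4 in replicate 1 with IL3, and in the pooled list with 66.2, rank 2282 of 15546. Replicate 2 with IL3 lacked that region and instead had one inside the gene, with a score of 35.0. The latter place had a STAT5A score of 20.4 in replicate 2 without IL3 and an LSD1 score of 75.6 in replicate 1 without IL3. That LSD1 score is the median of its list, whose lowest score is 60.5, and ranked 383 of 1007. Over the 12 libraries Myc had 0 and 1 STAT5A regions in starved cells and 4 and 2 after IL3. LSD1 was called 1.77 kb outside the lower bound in replicate 2 without IL3 (42.7) and replicate 1 with IL3 (22.3), and HDAC3 in replicate 1 without IL3 (39.5). The pooled HDAC3 lists differed from this, with a region there with IL3 (15.8, rank 508 of 1208) and none without IL3.

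Mycn, the MYC paralogue of neural and early cells, had the highest-ranked LSD1 region without IL3 among the 8 genes. It lay 11.4 kb downstream (chr12:12924563-12924810, intergenic) and was held by all 4 LSD1 libraries, with scores of 136.1 and 198.1 without IL3 and 52.0 and 56.0 with IL3. Its ranks were 56 of 1007 and 51 of 15786 without IL3, and 231 of 6479 and 707 of 11570 with IL3. Ranks of lists of different length show no change, and none is read from them. HDAC3 was called there in replicate 1 without IL3 (73.3, rank 86 of 1632) and STAT5A in replicate 2 without IL3 (23.8). Both pooled HDAC3 lists held the region, at 37.8 without IL3 (rank 164 of 3350) and 17.6 with IL3 (rank 346 of 1208). STAT5A with IL3 was not called there, and the strongest STAT5A region of the window with IL3, 29.9 kb downstream, was in replicate 1 alone with a score of 115.6.

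**Figure D4:**
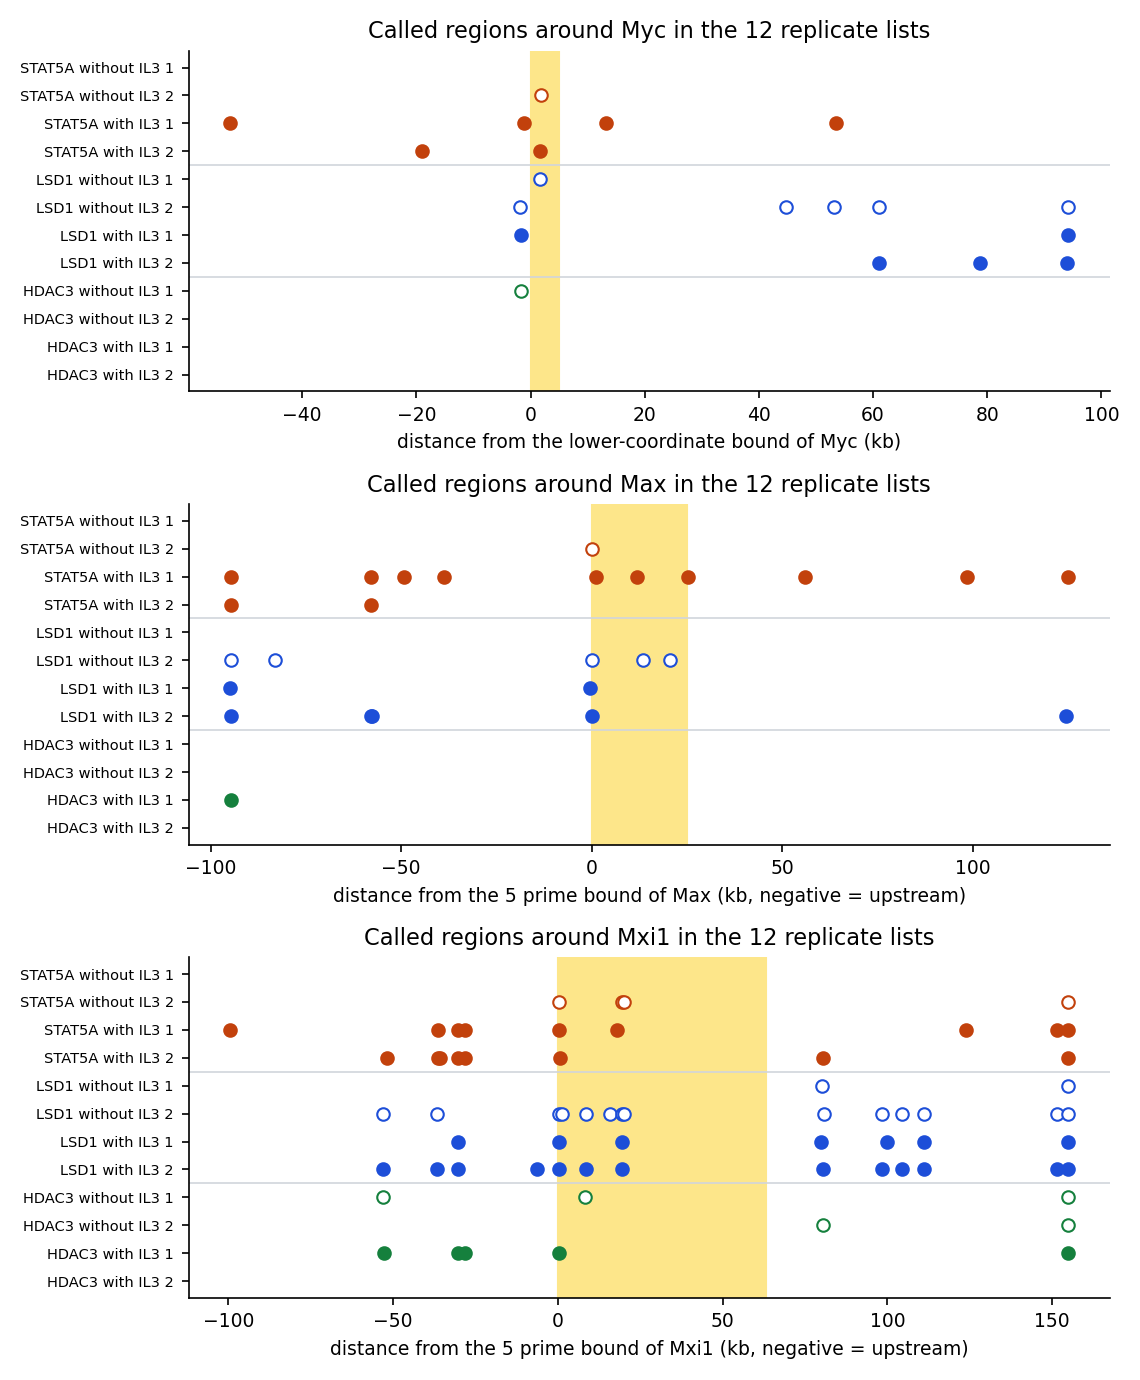
Centres of the regions of each of the 12 replicate lists (rows) against the distance in kb from the lower-coordinate bound of Myc and from the 5 prime bounds of Max and Mxi1 (x axes); the gene is shaded, open points are without IL3 and filled points with IL3. At Max and Mxi1, STAT5A points of both replicates with IL3 line up 94.7 kb and 28.1 to 36.6 kb upstream, while at Myc none line up.

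Merging the 18 lists gave 137 regions in the windows, and 38 of them were in 1 list alone. Pooled regions of all 3 proteins with IL3 fell in the same merged region at 4 places. These were 94.7 kb upstream of Max, 6.97 kb downstream of Mxd1, the first Mxi1 start and 91.5 kb downstream of Mxi1. At Mxd1 the pooled HDAC3 region (chr6:86639894-86640046) did not overlap the LSD1 region (chr6:86640071-86640241). The place 91.5 kb downstream of Mxi1 (chr19:53464696-53464985) was the only merged region in all 6 pooled lists, among 207 such regions in the genome. It was in 16 of the 18 lists. Its nearest gene is Dusp5, a phosphatase of ERK kinases, so it belongs to the Mxi1 window by distance only. LSD1 scores there were 121.0 and 158.4 without IL3 and 106.5 and 122.6 with IL3, HDAC3 scores 90.2 and 25.7 without and 24.7 in replicate 1 with IL3, and STAT5A scores 27.2 in replicate 2 without and 97.0 and 30.0 with IL3.

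STAT5A regions overlapped LSD1 regions of the same condition by 1 bp or more at 12 of 17 places without IL3 (70.6%, exact binomial 95% interval 44.0 to 89.7) and 14 of 42 with IL3 (33.3%, 19.6 to 49.5). The whole lists gave 52.5% and 33.4%. STAT5A overlapped HDAC3 at 4 of 17 (23.5%, 6.81 to 49.9) and 5 of 42 (11.9%, 3.98 to 25.6), and the lists gave 17.1% and 4.56%. HDAC3 overlapped LSD1 at 7 of 11 (63.6%, 30.8 to 89.1) and 6 of 8 (75.0%, 34.9 to 96.8), and the lists gave 69.6% and 69.0%. Each interval holds the share of its list, so no overlap near the 8 genes was separable from that of the list at these numbers. The intervals treat regions as independent, which they are not. The Mxi1 window alone gave 5 of the 12 STAT5A overlaps with LSD1 without IL3. With the list of the first STAT5A library without IL3 in place of the pooled one, 1 region was left, and the overlap with pooled LSD1 was then 0%.

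**Figure D5:**
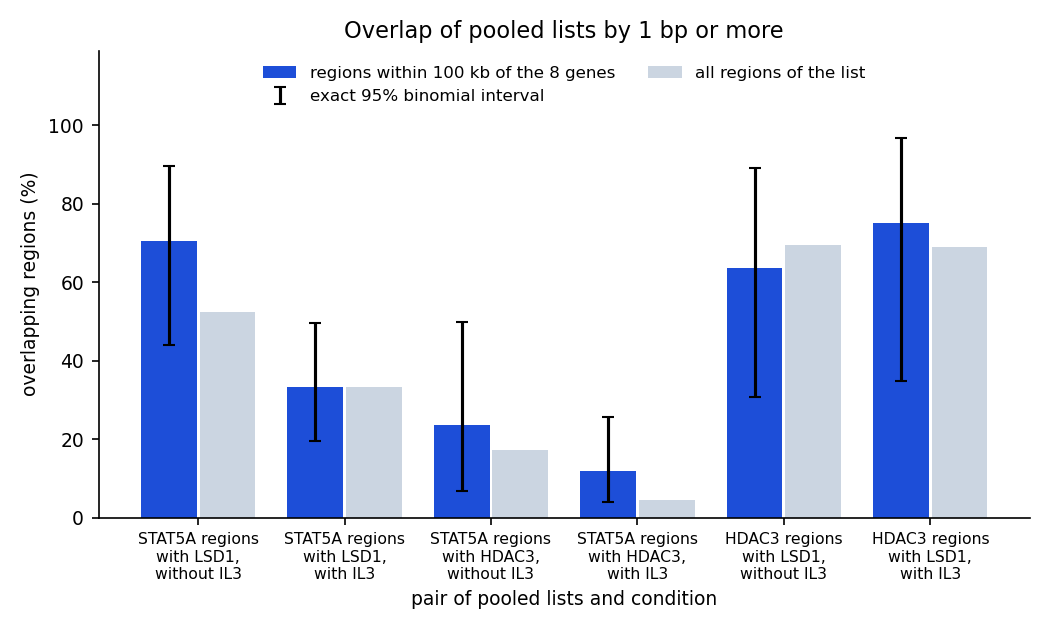
Share of pooled-list regions that overlap a second protein's regions of the same condition (y axis, %), within 100 kb of the 8 genes (blue, with exact 95% binomial intervals) and over the whole list (grey). Every interval reaches the grey bar beside it.

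Of 8 further network genes (Mycl, Mxd3, Mga, Mlxip, Mlxipl, Zbtb17, Sin3a and Sin3b), 5 had a pooled STAT5A region within 100 kb without IL3 and 8 with IL3, against 52.1% and 71.1% of all genes. Inside or within 1 kb, 2 had one in each condition, against 18.4% and 30.9% of all genes. Those with IL3 were Mlxip and Zbtb17, the latter encoding the MYC partner MIZ1, and scored 15.0 and 12.8, near the bottom of the list. Of 12 genes for MYC cofactors and turnover, 6 had such a close region without IL3 and 8 with IL3, against the same 18.4% and 30.9%. The highest with IL3 was within 1 kb of or inside Trrap, the scaffold of histone acetyltransferases that MYC recruits, in both replicates and with a pooled score of 130.3, rank 944 of 15546. Pim1, the kinase gene, had close regions at 20.9 without and 25.6 with IL3, each in 1 replicate.

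Of 15 textbook MYC targets, 6 had a close pooled STAT5A region without IL3 and 7 with IL3, against 18.4% and 30.9% of all genes. Ccnd2, which encodes cyclin D2, was the highest with IL3 (136.7, rank 881, both replicates). Srm, spermidine synthase, was the highest without IL3 (100.6, rank 8 of 5051), called in replicate 2 alone. Close LSD1 regions were more frequent, at 10 of 15 targets without and 13 with IL3, against 36.7% and 40.1% of all genes. Cdk4, the cyclin D kinase, had one with IL3 in both replicates, with a pooled score of 37.2. HDAC3 was close to 1 and 2 of the 15 (8.35% and 3.18% of all genes). These counts describe the lists and were not tested.

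The 100 kb limit did not fall in a gap. The farthest region inside it lay 99.9 kb from Max (STAT5A with IL3, score 17.1), and the nearest outside were 103 kb from Mlx (15.0) and 104 kb from Mxd1 (62.0). The last 20 kb inside held 28 pooled regions with scores from 11.6 to 621.7, the Max region included, and the next 20 kb outside held 18 with scores from 11.6 to 62.0.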

How the data were processed

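ChIP-seq of 3 proteins in 2 conditions gave 12 libraries. The submitters' processing notes name Trimmomatic 0.30, Bowtie2 2.1.0, Picard 1.92, HOMER 4.8 and mm10. For the peak caller's settings, control and threshold, the value is not given in the sources used here; the input library was not used here. The authors deposited a list of regions per library and per pooled group, each region with a score that no header or label defines. Region width is fixed per list, from 123 to 235 bp. The number of regions near a gene depends on the length of its list, which affects every count.

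Python 3.11.15 with pandas 2.3.3, numpy 2.4.6, scipy 1.17.1 and matplotlib 3.10.9 was used. Regions on assembled chromosomes were assigned to windows of 100 kb around RefSeq gene bounds by any overlap (by their centre for the 1 kb limit) and called shared at 1 bp or more; tied scores share the lowest rank number. Distances run from the gene bound to the nearer edge or the centre of a region. The exact permutation test over libraries, two-sided, was used for counts. Group labels came from the sample titles. The members and gene lists were chosen with earlier results of these data known. The text may name each member's highest region per pooled list, regions shared by both replicates, regions in or within 1 kb of a gene, and 3 lists of related genes; a part was picked after values were seen. The overlap, gained, lost and window steps were tested on simulated data. Replicate numbers did not pair the libraries by any label. Alternatives were a 10 kb window, the upper 50% of each list by score, leaving out regions in all 6 pooled lists, nearest-gene assignment, overlap over 50% of a region, both-replicate calls and each library left out.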

Additional observations from a re-analysis of the deposited data

How the results depend on the processing

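The 10 gained STAT5A regions became 1 within 10 kb, 6 in the upper 50% of each list by score and 5 where the member is the nearest gene, and 10 to 41 with a library left out, and lost ones 0 to 11. The gained LSD1 region was lost within 10 kb (0). With a library left out LSD1 had 1 to 15 gained and 0 to 24 lost, and HDAC3 0 to 4 of each, since fewer lists must then meet the call. Leaving out a library put the log2 ratio at 0.85 to 4.1 for STAT5A, -0.92 to 2.3 for LSD1 (-0.92 without replicate 1 without IL3) and -2.2 to 0.61 for HDAC3 (0.61 without replicate 2 with IL3). With nearest-gene assignment the HDAC3 ratio was 0.16, and the cause was not tested. With the replicate block the ratios stayed at 2.47 for STAT5A, 0.69 for LSD1 and -0.79 for HDAC3 by construction (exact sign-flip p 0.5, 1.00 and 1.00), and deviations of same-numbered libraries over gene windows correlated at 0.04, 0.40 and 0.29. Within 10 kb the STAT5A overlap with HDAC3 and the HDAC3 overlap with LSD1 without IL3 were 0%, and the latter was 20% with nearest-gene assignment. For the overlap shares, leaving out a library put the other library's own list in place of that protein's pooled list. The second protein of the pair stayed pooled. STAT5A overlap with LSD1 was then 0 to 64.7% without and 16.7 to 36.0% with IL3. STAT5A with HDAC3 was 0 to 17.6% and 0 to 20%, and HDAC3 with LSD1 18.2 to 100% and 62.5 to 83.3%. Asking for both replicate lists left 1 gene with STAT5A, 4 with LSD1 and 1 with HDAC3 without IL3, and 0 with HDAC3 with IL3. Within 10 kb HDAC3 was near 2 genes without and 3 with IL3. The other 109 recomputed summary values were classed as unchanged. For a ratio this meant the same sign, and for a share a value inside the interval of the main result. For a count it meant a value within 1.5 times. Size could still differ: the LSD1 ratio of 0.69 was 0.05 without replicate 2 with IL3. The STAT5A overlap with LSD1 without IL3 was 47.1% at overlap over 50% of a region, against 70.6%. Counts per gene in the pooled lists moved in 71 of their recomputed values and stayed within 1.5 times in 121. All 71 were lower, 32 within 10 kb, 23 by nearest gene and 16 in the upper 50% of the lists, as these settings keep fewer regions; Mxi1 fell from 12 to 3 STAT5A regions with IL3 within 10 kb.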

Other observations

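Enhancers of Myc in blood cells are known to lie far beyond the gene, so regions from 100 kb to 2 Mb away were counted as well. On the higher-coordinate side STAT5A had 1 and 4 in starved cells and 37 and 4 after IL3, and on the lower side 0 and 0, then 1 and 0. The high count came from 1 library, and the replicates with IL3 differed by more than the conditions did. A pair of regions recurred. The first, chr15:63657912-63658237, lay 1668 kb from Myc and 118 kb from its nearest gene, Gsdmc. Its STAT5A scores with IL3 were 697.4 (rank 13 of 13574) and 190.1 (rank 59 of 6288), with no region in either library without IL3. LSD1 scored 64.0 there in replicate 2 without IL3 and 64.4 and 48.0 with IL3, and HDAC3 scored 56.4 and 35.6 in replicate 1 without and with IL3. The second, chr15:63648244-63648656, lay 1658 kb from Myc and was in all 6 pooled lists and 15 of 18 lists. STAT5A scored 645.1 and 80.0 there with IL3 and 60.2 in replicate 1 without IL3, and HDAC3 ranked 10 of 1208 in the pooled list with IL3. The files hold no contact data, and no link of these regions to Myc was measured.

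Over all promoter windows, the STAT motif TTCNNNGAA was in 15.1% of the 2616 windows that the pooled STAT5A list with IL3 overlapped and in 5.47% of the 2286 overlapped without IL3, against 8.30% of all 32851. For CACGTG the shares were 10.1% and 10.3%, against 7.15% of all. These shares were not tested, and a match is only a description of the letters.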
